A study of Rattus norvegicus with 13 samples.

Results

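Glucocorticoid activation and response was followed in rat fat through 6 genes out of 14506 measured: the activating enzyme Hsd11b1, the receptors Nr3c1 and Nr3c2, and the response genes Fkbp5, Tsc22d3 and Sgk1. The genes were chosen by name from the array annotation, with the brightest probe kept for a gene. Each of the 6 had 1 probe on the array, so no choice between probes was needed.

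Glucocorticoids reach fat through the blood, and fat cells also make active hormone locally, because Hsd11b1 turns the inactive keto form back into corticosterone, the main glucocorticoid of the rat. The hormone binds the glucocorticoid receptor, encoded by Nr3c1, and the mineralocorticoid receptor, encoded by Nr3c2, which move to the nucleus and switch genes on or off. Fkbp5 encodes a co-chaperone that holds the glucocorticoid receptor in a state with low hormone affinity, Tsc22d3 encodes the glucocorticoid-induced leucine zipper, an anti-inflammatory protein, and Sgk1 encodes a serine and threonine kinase that both receptors induce.

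The animals were females of the outbred Sprague Dawley strain. Of the 13 daughters, 7 had a father kept on standard chow with 9% fat and 6 had a father given pellets with 43% fat. Fathers of both groups were 15 weeks old at mating, the mothers ate chow, and all daughters were weaned onto chow at 3 weeks. Their fat was collected at 14 weeks, so neither group of daughters ate the high-fat pellets. The labels do not name the fat depot, the hour or manner of tissue collection, the father or the litter of a daughter, or any hormone level. The p-values therefore measure the spread between these 13 samples. The daughters carry numbers from 619 to 631 or from 656 to 664, and these are used as names below. The labels do not say what the number ranges stand for.

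The values were log2 levels, on which a step of 1 is a doubling of signal. The tissue check gene Adipoq, the fat cell hormone adiponectin, had mean log2 levels of 13.82 ± 0.07 (SD, n = 7) in daughters of control fathers and 13.85 ± 0.11 (SD, n = 6) in daughters of high-fat fathers. The array of control daughter 658 stood apart: the progesterone receptor Pgr was at 9.75 there and between 5.88 and 6.36 on the other 12 arrays, and the smooth muscle gene Myh11 was at 11.92 against 9.79 to 10.64. Its values also had the smallest spread, with a standard deviation over all probes of 1.78, while the other 12 arrays lay between 1.86 and 1.96. Skeletal muscle markers averaged 11.90 in control 662, 11.77 in control 664, 11.66 in high-fat 629 and 9.16 in high-fat 619, and 7.22 to 7.35 in the other 9 arrays. In a piece of fat, fewer cells of a type and less RNA per cell cannot be told apart.

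Fkbp5 and Tsc22d3 moved together from daughter to daughter, as described below, so the sequences just before their annotated starts are shown here. They come from RefSeq on assembly GRCr8, cover the 250 bases before each start and are written 5′ to 3′ on the minus strand, on which both genes lie. Fkbp5 has 1 annotated start in this set, with the window chr20:6543556-6543805, and Tsc22d3 has 3, with windows chrX:109010035-109010284 (inner), chrX:109065431-109065680 (middle) and chrX:109066390-109066639 (outer). Capitals mark the TATA box letters TATAAA.
Fkbp5 promoter: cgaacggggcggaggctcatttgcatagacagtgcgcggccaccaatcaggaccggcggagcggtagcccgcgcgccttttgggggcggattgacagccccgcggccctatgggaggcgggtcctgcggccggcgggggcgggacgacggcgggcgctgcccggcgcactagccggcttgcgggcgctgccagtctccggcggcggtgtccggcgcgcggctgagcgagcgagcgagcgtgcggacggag
Tsc22d3 inner promoter: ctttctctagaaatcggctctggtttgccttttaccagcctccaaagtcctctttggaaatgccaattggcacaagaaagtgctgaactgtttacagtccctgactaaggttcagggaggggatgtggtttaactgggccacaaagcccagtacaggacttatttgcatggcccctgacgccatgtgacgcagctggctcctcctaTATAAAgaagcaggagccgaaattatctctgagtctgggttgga
Tsc22d3 middle promoter: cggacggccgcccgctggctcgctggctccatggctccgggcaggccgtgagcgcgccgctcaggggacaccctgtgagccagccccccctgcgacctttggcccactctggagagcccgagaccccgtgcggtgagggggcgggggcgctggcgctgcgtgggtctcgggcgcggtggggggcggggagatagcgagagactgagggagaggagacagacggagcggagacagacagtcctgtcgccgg
Tsc22d3 outer promoter: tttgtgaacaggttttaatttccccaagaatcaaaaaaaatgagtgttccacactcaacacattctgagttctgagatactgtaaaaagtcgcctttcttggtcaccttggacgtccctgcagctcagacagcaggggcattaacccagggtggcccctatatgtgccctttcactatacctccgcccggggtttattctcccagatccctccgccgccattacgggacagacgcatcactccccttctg
The 4 windows hold neither the palindromic glucocorticoid response element, searched as its half-site AGAACA, then 3 free bases and the reverse complement of the half-site, nor the half-site alone, on either strand. Among 33469 promoter windows of the same length, 4 (0.012%) hold the full element and 5865 (17.5%) the half-site. The TATA box of the inner Tsc22d3 window begins 44 bases before the start, and 2696 windows (8.06%) hold these letters on the strand of the gene. The Fkbp5 window is 76.0% G and C with 41 CpG dinucleotides, and the inner and middle Tsc22d3 windows are 49.2% and 74.4% G and C, against a median of 51.2% over all windows. A response element outside these windows was not searched for. Of the 6 genes, 4 have promoter entries in this set, and Nr3c1 and Sgk1 hold neither the element nor the half-site in their windows either.

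None of the 6 genes passed the test between daughters of high-fat and of control fathers by limma's moderated test with Benjamini-Hochberg adjustment over all genes. The 6 adjusted p-values ran from 0.529 to 0.993. Over the whole array 0 of 14506 genes passed (0%), and 7.96% had an unadjusted p under 0.05, against 0 of the 6. The groups overlapped for all 6 genes, and 0.0827% of all genes had groups that did not overlap. Differences are given as high-fat minus control in log2 units.

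Hsd11b1, the activating enzyme, had log2 levels of 8.84 to 9.21 in daughters of control fathers, with a median of 9.09, and of 9.06 to 9.41 in daughters of high-fat fathers, with a median of 9.14. The ranges overlapped between 9.06 and 9.21, and all 6 high-fat daughters lay above the control mean. The means were 9.04 ± 0.14 (SD, n = 7) and 9.18 ± 0.13 (SD, n = 6). The difference of 0.14 ± 0.07 (SE) had a 95% interval of -0.02 to 0.30 and an adjusted p of 0.529. On a linear scale the interval runs from 0.98-fold to 1.23-fold.

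Nr3c1, the glucocorticoid receptor, had log2 levels of 10.37 to 10.90 in the control group, with a median of 10.82, and of 10.67 to 11.10 in the high-fat group, with a median of 10.89. The lowest value belonged to control 658, the array that stood apart, and the 6 other control daughters lay between 10.76 and 10.90. High-fat daughters 619, 624 and 620 were the 3 highest of all, at 11.10, 11.05 and 10.99, while high-fat 629 was at 10.67. The difference was 0.14 ± 0.09 (SE; interval -0.07 to 0.34, adjusted p = 0.539). It was 0.07 without control 658 and 0.01 with the spread of each array as a covariate.

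Nr3c2, the mineralocorticoid receptor, had log2 levels of 8.79 to 9.47 in the control group, with a median of 9.09, and of 8.97 to 9.49 in the high-fat group, with a median of 9.32. The 2 ranges covered nearly the same span, and 4 of 6 high-fat daughters lay above the control mean. The difference was 0.16 ± 0.12 (SE; interval -0.10 to 0.42, adjusted p = 0.565).

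**Figure D1:**
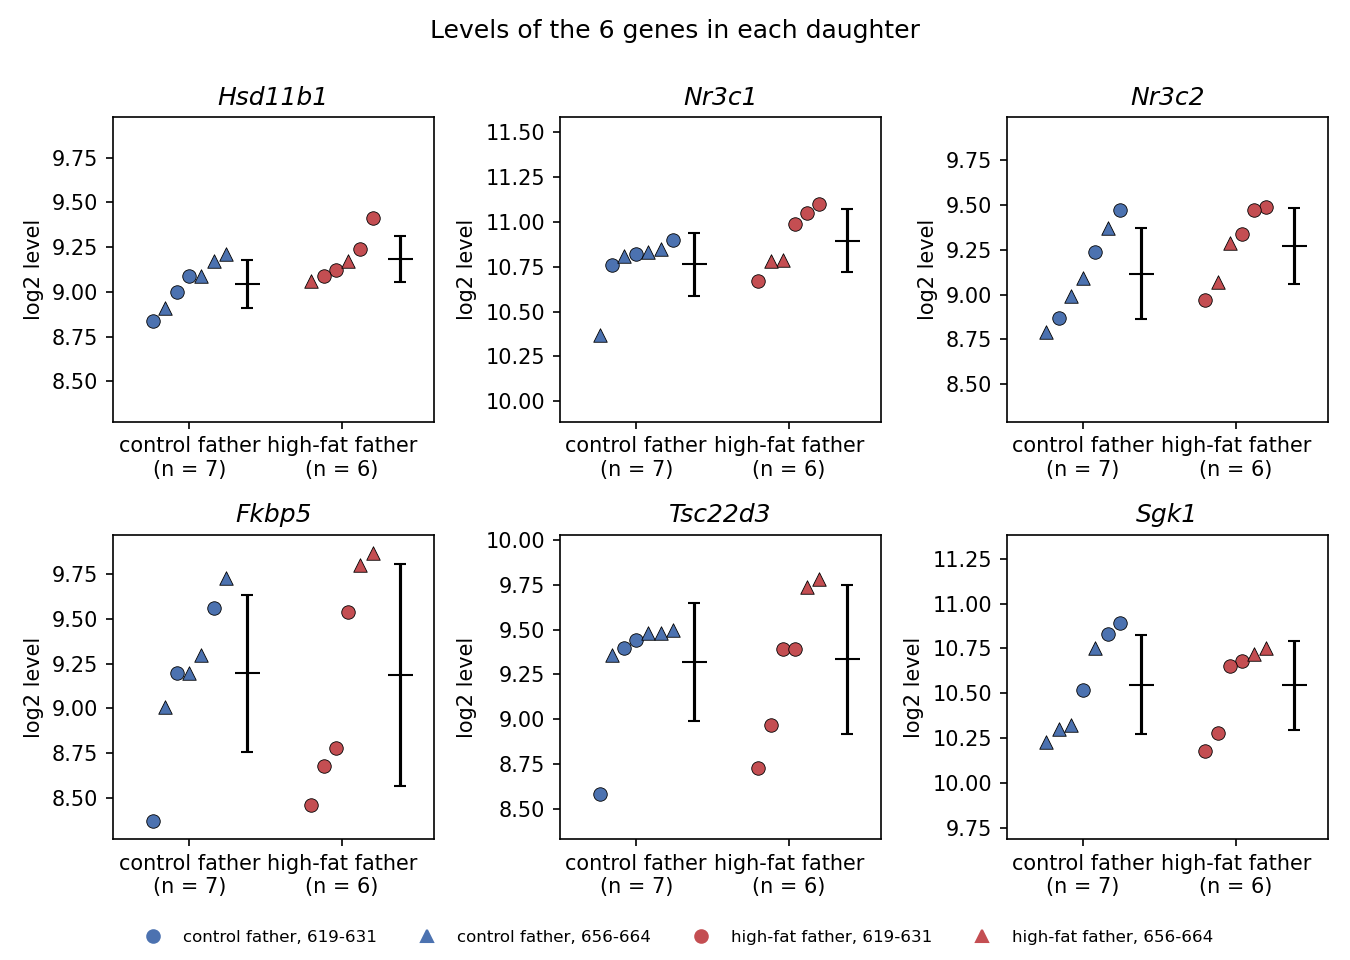
Log2 level of each of the 6 genes in the 13 daughters, with 1 panel per gene, blue for control fathers (n = 7), red for high-fat fathers (n = 6), circles for daughters 619 to 631 and triangles for daughters 656 to 664. Bars show mean and SD, all panels span the same number of log2 units, and the widest spread is that of Fkbp5, from 8.37 to 9.87.

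Among the response genes, Fkbp5 had log2 levels of 8.37 to 9.73 in the control group, with a median of 9.20, and of 8.46 to 9.87 in the high-fat group, with a median of 9.16. Each group held both low and high daughters, and the lowest and the highest animals differed 2.83-fold. The means were 9.20 ± 0.44 (SD, n = 7) and 9.19 ± 0.62 (SD, n = 6), with a difference of -0.01 ± 0.26 (SE; interval -0.57 to 0.55, adjusted p = 0.993). On a linear scale this interval runs from 0.68-fold to 1.47-fold, so with this number of arrays differences between the groups within it are not excluded.

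Tsc22d3 had log2 levels of 8.58 to 9.50 in the control group, with a median of 9.44, and of 8.73 to 9.78 in the high-fat group, with a median of 9.39. Control 631 was far below the other control daughters, which lay between 9.36 and 9.50, and high-fat 619 and 620 were low as well, at 8.73 and 8.97. The difference was 0.01 ± 0.19 (SE; interval -0.38 to 0.41, adjusted p = 0.978).

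Sgk1 had log2 levels of 10.23 to 10.89 in the control group, with a median of 10.52, and of 10.18 to 10.75 in the high-fat group, with a median of 10.67. The low and the high animals were again found in both groups. The difference was -0.01 ± 0.13 (SE; interval -0.29 to 0.28, adjusted p = 0.988). The differences of Fkbp5, Tsc22d3 and Sgk1 were so close to 0 that their sign turned with the scaling: centring each array on its median gave 0.02 for Fkbp5 and for Sgk1, and another quantile normalization gave -0.04 for Tsc22d3.

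The genes differed in how much they varied between daughters of the same group. The within-group SD of log2 levels was 0.53 for Fkbp5, larger than that of 98.1% of all genes, and 0.37 for Tsc22d3, larger than that of 94.8%. Sgk1 had 0.26 (86.9%), Nr3c2 0.24 (82.6%), Nr3c1 0.18 (65.8%) and Hsd11b1 0.13 (40.8%). Fkbp5 and Tsc22d3 had the widest spreads of the 6, a description with no test of the difference.

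Fkbp5 and Tsc22d3 had higher means in the upper number range, without passing the test over all genes. Fkbp5 averaged 9.05 in control and 8.87 in high-fat daughters numbered 619 to 631, and 9.31 and 9.84 in those numbered 656 to 664. Tsc22d3 averaged 9.14 and 9.12 in the lower range and 9.46 and 9.76 in the upper range. With group in the model, daughters 656 to 664 were higher by 0.57 ± 0.23 (SE) for Fkbp5 and by 0.46 ± 0.15 (SE) for Tsc22d3, both with an unadjusted limma p under 0.05, as had 5.46% of all genes, and an adjusted p of 0.692. Of all genes, 0% passed.

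For Sgk1 the difference between the group means ran in opposite directions in the 2 ranges. Control daughters 622, 627 and 631 had log2 levels of 10.89, 10.83 and 10.52, and high-fat daughters 619, 620, 624 and 629 had 10.18, 10.68, 10.28 and 10.65. In the upper range controls 656, 658, 662 and 664 had 10.75, 10.30, 10.32 and 10.23, and high-fat 660 and 663 had 10.75 and 10.72. The interaction of group and range was 0.64 ± 0.24 (SE) with an unadjusted limma p under 0.05, as had 3.47% of all genes, and an adjusted p of 0.999, and 0% of all genes passed.

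The 6 genes were then compared with each other across the 13 daughters, giving 15 pairs. Only Fkbp5 and Tsc22d3 passed by Pearson correlation after adjustment over the 15 pairs. Their r was 0.89, with a two-sided permutation p of 1e-05, the smallest that 100000 permutations can give, and an adjusted p of 0.00015. Spearman's rho was 0.90 (permutation p = 6e-05, adjusted p = 0.0009). The daughters at both ends were the same for both genes: control 631 and high-fat 619 and 620 were low in both, and high-fat 660 and 663 were the highest in both.

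The relation between Fkbp5 and Tsc22d3 held in every subset computed before adjustment over pairs. Without control 631 and high-fat 619, the 2 daughters farthest from the median of Fkbp5, r was 0.80 (permutation p = 0.00109). It was 0.86 in the 7 control daughters (exact permutation p = 0.0208) and 0.91 in the 6 high-fat daughters (exact permutation p = 0.00417). Within daughters 619 to 631 it was 0.86 (exact permutation p = 0.02) and within daughters 656 to 664 it was 0.83 (exact permutation p = 0.0375), and neither passed over the 15 pairs in those small sets. Leaving out any 1 daughter gave 0.86 to 0.93. In a limma fit with Fkbp5 as the covariate, Tsc22d3 rose by 0.63 ± 0.09 (SE) log2 units per log2 unit of Fkbp5, with an adjusted p of 0.0265 over all genes. With Tsc22d3 as the covariate the slope of Fkbp5 was 1.26 ± 0.18 (SE), with an adjusted p of 0.0897.

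**Figure D2:**
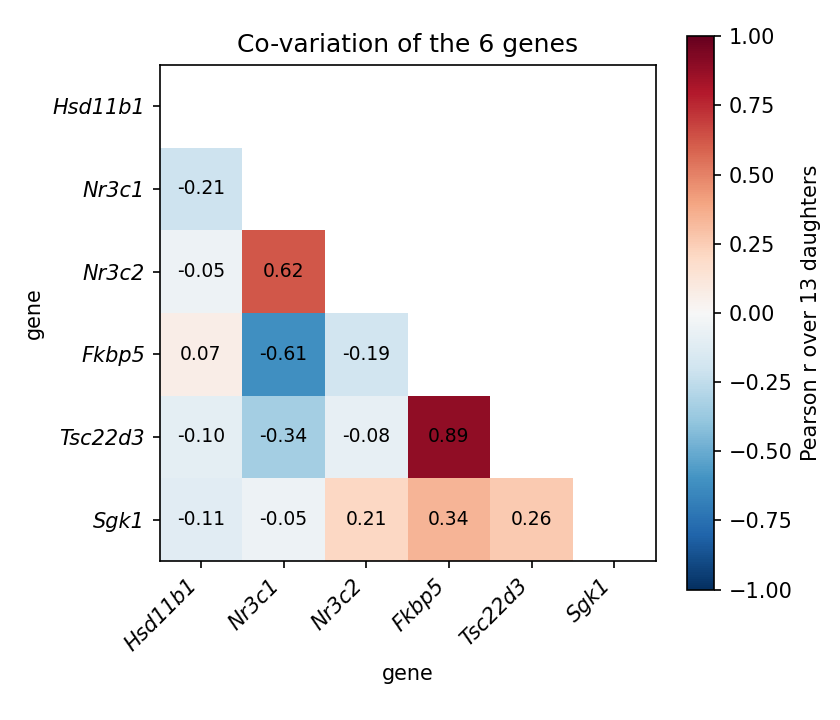
Pearson r over 13 daughters for the 15 pairs of the 6 genes, on a colour scale from -1 (blue) to 1 (red). The pair of Fkbp5 and Tsc22d3 stands at 0.89, and the next in size are Nr3c1 with Nr3c2 at 0.62 and Nr3c1 with Fkbp5 at -0.61.

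The receptors Nr3c1 and Nr3c2 had an r of 0.62 with each other (permutation p = 0.0182, adjusted p = 0.116) and a rho of 0.76 (adjusted p = 0.0313), so with all 13 daughters the pair passed by rank and not by r. By r it passed without control 664, at 0.70. In limma fits over all genes the slope of Nr3c2 on Nr3c1 was 0.82 ± 0.29 (SE, adjusted p = 0.0316), in a fit where 46.4% of all genes passed, and that of Nr3c1 on Nr3c2 was 0.47 ± 0.18 (SE, adjusted p = 0.193). Its r was 0.62 without the 2 daughters farthest in Nr3c1 and 0.76 without the 2 farthest in Nr3c2. It was 0.94 in the 6 high-fat daughters (exact permutation p = 0.00139) and 0.32 in the 7 control daughters (exact permutation p = 0.572), and the difference between the groups was not tested.

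Nr3c1 ran against Fkbp5 with an r of -0.61 (permutation p = 0.0231, adjusted p = 0.116) and a rho of -0.55 (adjusted p = 0.264). Without control 658 and high-fat 619, r was -0.45 (permutation p = 0.167), and without control 631 alone it was -0.76 and passed over the 15 pairs, so whether the pair passed depended on single daughters. In limma fits over all genes the slope of Fkbp5 on Nr3c1 was -1.67 ± 0.59 (SE, adjusted p = 0.033), again where 46.4% of all genes passed, and that of Nr3c1 on Fkbp5 was -0.22 ± 0.09 (SE, adjusted p = 0.491). Sgk1 had an r of 0.34 with Fkbp5 (adjusted p = 0.754) and 0.26 with Tsc22d3 (adjusted p = 0.864). The other 10 pairs, among them every pair with Hsd11b1, had r between -0.34 and 0.21 with no adjusted p under 0.754.

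Across all other genes, 5 of 14505 (0.0345%) passed in the fit with Fkbp5 as the covariate, all with a positive slope. They were Tsc22d3 and 4 genes named here after their values were seen. Cdkn1a, a cyclin-dependent kinase inhibitor, ran from 8.30 in high-fat 619 to 9.48 in control 658 and had an r of 0.96 (adjusted p = 0.000233). Slc7a6, an amino acid transporter, ran from 9.32 in control 631 to 10.57 in high-fat 663 (r = 0.93, adjusted p = 0.0037). The transcriptional repressor Bcl6 had an r of 0.91 (adjusted p = 0.0178) and Fmo2, a flavin-containing monooxygenase, an r of 0.89 (adjusted p = 0.0195). Without high-fat 620, 2 genes passed, and with the number range as a covariate 2 passed.

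**Figure D3:**
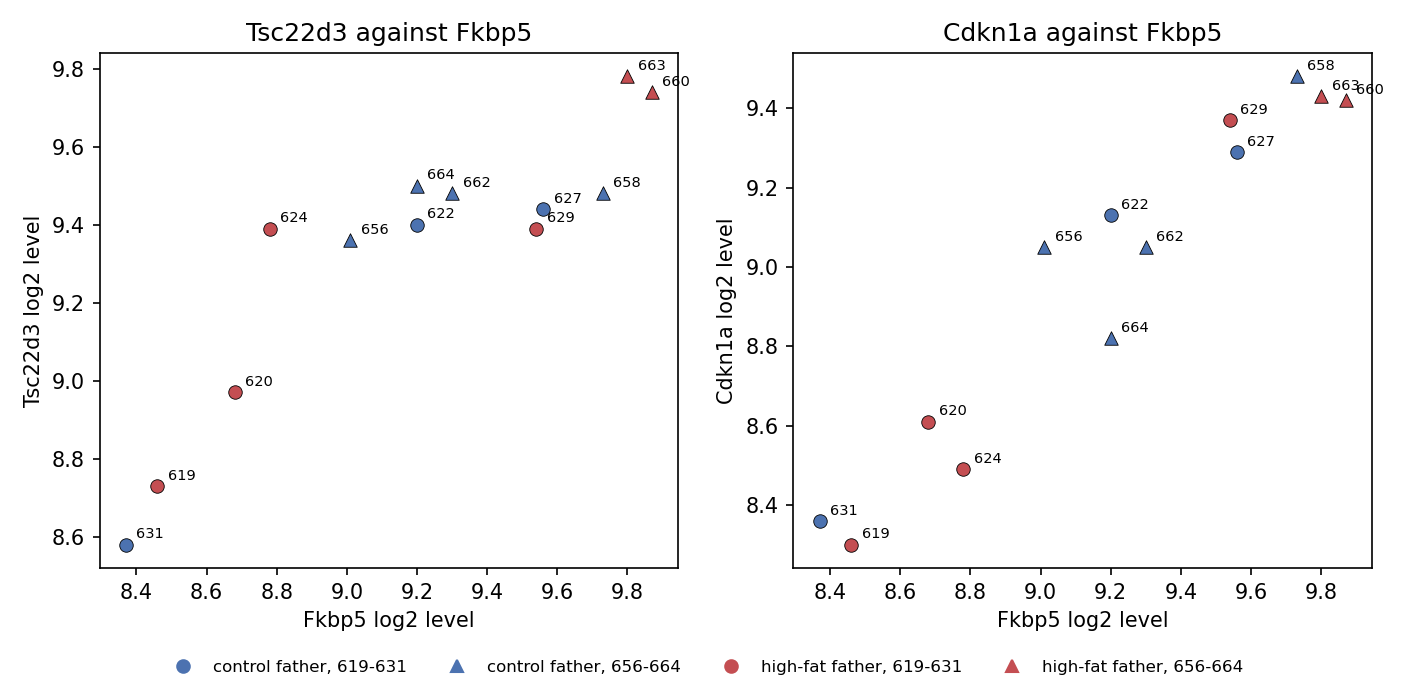
Log2 levels of Tsc22d3 (left) and Cdkn1a (right) against the log2 level of Fkbp5, with 1 point per daughter and its number, blue for control fathers, red for high-fat fathers, circles for 619 to 631 and triangles for 656 to 664. Daughters 631 and 619 lie lowest and daughters 660 and 663 are high in both panels, and both colours occur at both ends.

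Nearest genes are given by r over the 13 daughters, with locus-number symbols (LOC and RGD) left out. The 3 nearest to Fkbp5 were Cdkn1a, Slc7a6 and Bcl6, with r of 0.96, 0.93 and 0.91 and rho of 0.93, 0.85 and 0.90. Those nearest to Tsc22d3 were Fkbp5, the insulin-restrained transcription factor Foxo1 and Slc7a6, with r of 0.89, 0.87 and 0.86. Foxo1 ran from 10.16 in control 631 to 10.77 in high-fat 663.

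Genes known from textbooks and earlier work to be induced by glucocorticoids were set against the members in the same fits. The list held 32 genes other than the members, of which 29 were measured. It was chosen with earlier results of these data known, so the shares below are a description and not a test on an independent list. Relations of the 29 genes with each other were not tested. With Fkbp5, 22 of the 29 had a positive r, and the median r was 0.49, where the median over all genes was -0.04. An unadjusted p under 0.05 with a positive slope was found for 13 of the 29 (44.8%) and for 3.76% of all genes, and 2 of the 29, Cdkn1a and Bcl6, passed over all genes. With Tsc22d3, 24 had a positive r, the median r was 0.42 against 0.01 over all genes, and 13 (44.8%) had an unadjusted p under 0.05 against 1.27%, with 0 passing over all genes. The 13 genes were the same for both members. Both members moved together over the same daughters, so the counts with Fkbp5 and with Tsc22d3 are not independent results.

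The 13 genes were Cdkn1a, Bcl6, Foxo1, Klf9, Zbtb16, Foxo3, Mt1, Per1, Errfi1, Pdk4, Mt2A, Lpin1 and Dusp1. The transcription factor Klf9 had an r of 0.84 with Fkbp5 and 0.81 with Tsc22d3, its log2 levels ranging from 8.73 in control 631 to 9.46 in high-fat 660. Foxo3, a relative of Foxo1, had 0.81 and 0.72, and Mt1, a metallothionein that binds zinc, 0.73 and 0.72. The zinc finger gene Zbtb16 had 0.82 and 0.69 and ran from 10.15 in control 656 to 11.73 in high-fat 660. Per1, a clock gene with a direct glucocorticoid response, had 0.68 and 0.69, and Pdk4, which restrains glucose oxidation, 0.67 and 0.57.

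Other genes of the list did not move with these 2 members or ran against Fkbp5. Angptl4, an inhibitor of lipoprotein lipase, had an r of -0.61 with Fkbp5 and Rasd1, a small GTPase induced by dexamethasone, -0.56, each with an unadjusted p under 0.05 and a negative slope, as had 6.41% of all genes. Pck1, the key enzyme of glyceroneogenesis in fat, had -0.37, and the fat lipase Pnpla2 -0.45. The count of 13 with Fkbp5 was 11 without control 631, where 13.8% of all genes then had a positive slope at that level, and with Tsc22d3 it was 10 without that daughter, against 6.69% of all genes. Across the other settings the count with Fkbp5 was 11 to 15.

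**Figure D4:**
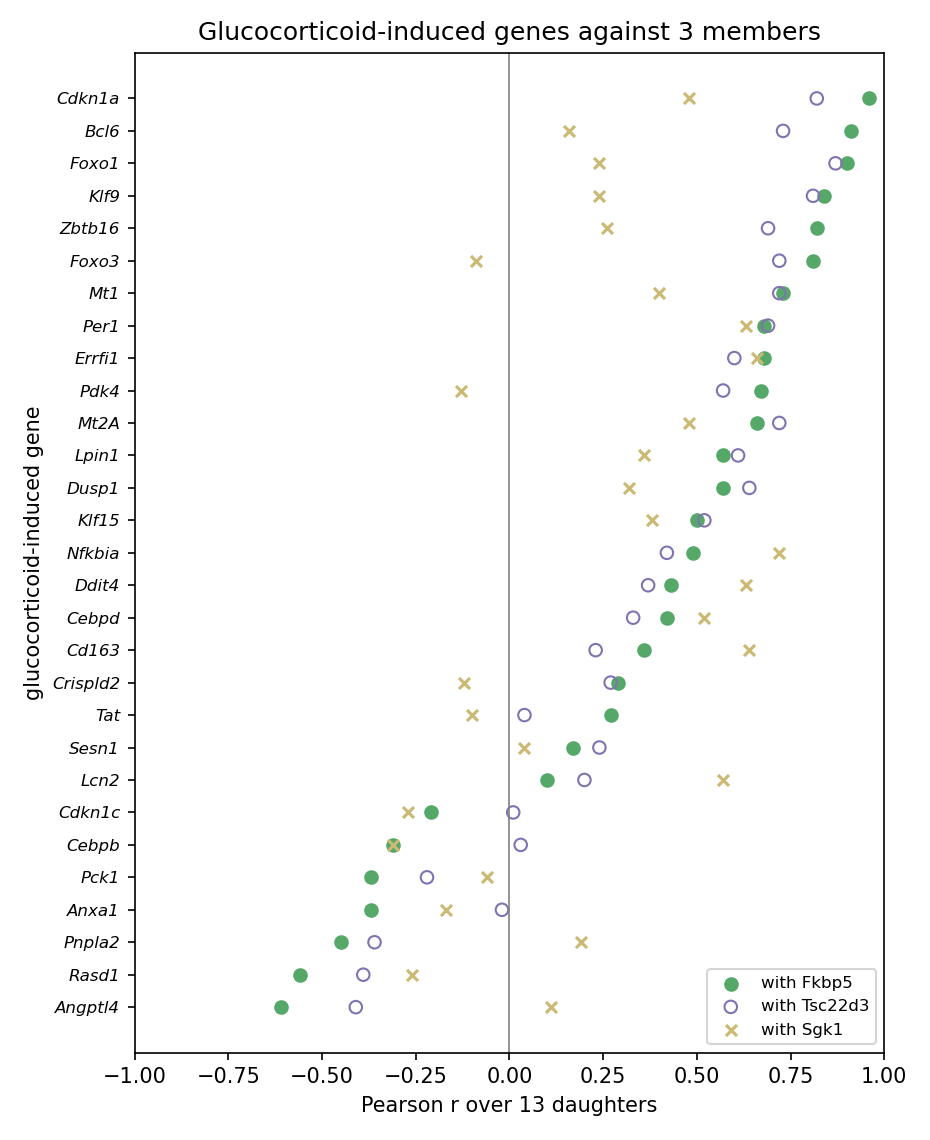
Pearson r over 13 daughters of the 29 measured glucocorticoid-induced genes with Fkbp5 (green dots), Tsc22d3 (open circles) and Sgk1 (crosses), ordered by r with Fkbp5. With Fkbp5, 22 of 29 lie right of 0, Cdkn1a lies highest at 0.96 and Angptl4 lowest at -0.61.

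With Sgk1, 20 of the 29 genes had a positive r. The median r was 0.24, against 0.05 over all genes, and 6 had an unadjusted p under 0.05 with a positive slope (20.7%, against 2.65% of all genes). They included Nfkbia, the inhibitor of the NF-kappaB transcription factor, with an r of 0.72, Errfi1 with 0.66 and Per1 with 0.63. The count of 6 was 3 without control 622 (10.3%, against 2.09% of all genes). It was 4 without the 4 muscle-rich arrays (13.8%, against 4.38%). With the number range as a covariate it was 10 (34.5%, against 2.65%), as it was with muscle markers as a covariate (34.5%, against 3.76%). Over all genes 1 passed with Sgk1 (0.00689%), the LIM-domain cofactor Fhl2, with an r of 0.92 (adjusted p = 0.0216), and it ran from 7.87 in high-fat 619 to 8.81 in control 627. The number of genes passing over all genes was 0 when control 622, 627, 656, 658 or 662 or high-fat 619, 620 or 624 was left out. The next nearest genes were S1pr1, a sphingosine phosphate receptor, and Npy1r, a neuropeptide Y receptor that acts against lipolysis in fat cells, with r of 0.88 and 0.83.

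For the enzyme and the receptors, the median r of the 29 genes was 0.08 with Hsd11b1 (-0.02 over all genes), 0.01 with Nr3c2 (0.20) and -0.28 with Nr3c1 (0.24). No gene passed with Hsd11b1 (0%) or Nr3c2 (0%). With the skeletal muscle marker mean as a covariate 1260 passed with Nr3c2, and 1 did without control 662, control 664, high-fat 629 and high-fat 619. The nearest genes to Hsd11b1 were the phosphatase subunit Ppp1cb (r = 0.84, rho = 0.72), Rsph14 (0.84 and 0.67) and Apoa1 (0.83 and 0.58). The nearest to Nr3c2 were the ubiquitin-conjugating enzyme Ube2d3 (r = 0.93, rho = 0.92), the adaptor protein Ywhab (0.92 and 0.92) and Adcyap1r1, a receptor for the peptide PACAP (0.92 and 0.95).

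With Nr3c1 as the covariate 6729 of 14505 genes (46.4%) passed, and this count depended on 1 array. It was 371 without control 658 and 79 with the spread of each array as a covariate. The nearest genes were Gpbp1l1, the spliceosome helicase gene Aqr and the renalase gene Rnls, with r of 0.98, 0.97 and 0.97 and rho of 0.83, 0.97 and 0.89. Control 658 was the lowest daughter for all 3, as it was for Nr3c1. The level of Nr3c1 followed the spread of the arrays with an r of 0.84 (permutation p = 0.00082, adjusted p = 0.0233 over 96 relations) and a rho of 0.73 (adjusted p = 0.134), and r was 0.60 (permutation p = 0.0506) without controls 631 and 658.

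**Figure D5:**
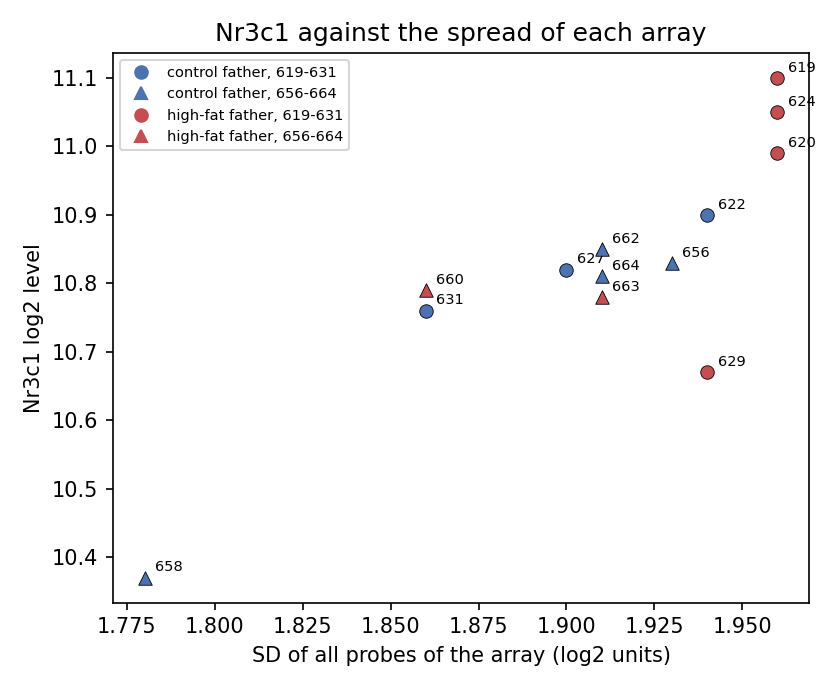
Log2 level of Nr3c1 against the standard deviation of all probe values of the array, with 1 point per daughter and its number, blue for control fathers, red for high-fat fathers, circles for 619 to 631 and triangles for 656 to 664. Control 658 lies lowest on both axes, at 10.37 and 1.78, and high-fat 619, 620 and 624 lie highest, at a spread of 1.96.

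Markers of other cell types and states were set beside the members as the mean log2 level of each of 15 lists. With the array spread this made 16 measures and 96 relations, of which 7 passed by Pearson's r and none by rho, and all 7 were with Nr3c1. Nr3c1 was higher where adipocyte markers (r = 0.78, adjusted p = 0.0233), endothelial markers (0.82, adjusted p = 0.0487) and clock genes (0.78, adjusted p = 0.0233) were higher. It was lower where smooth muscle (-0.84, adjusted p = 0.0288), ovary and uterus (-0.88, adjusted p = 0.0233) and kidney tubule markers (-0.76, adjusted p = 0.0487) were higher. The smooth muscle mean was 11.93 in control 658 and 10.25 to 10.95 in the other 12 daughters, and without control 658 and high-fat 629 its r was -0.38 (permutation p = 0.247). Without the 2 daughters farthest in the measure, r was 0.44 for endothelial (permutation p = 0.178) and -0.43 for kidney tubule markers (permutation p = 0.184). It was 0.64, 0.65 and -0.67 for adipocyte, clock and ovarian markers. The part of these measures in the level of Nr3c1 was not tested.

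None of these relations passed for Fkbp5, whose r over the marker lists ran from -0.39 to 0.65, or for Tsc22d3, with -0.25 to 0.57. The highest for Fkbp5 was that with B cell markers (adjusted p = 0.143), whose mean ran from 7.23 to 7.58 in control and from 7.21 to 7.55 in high-fat daughters. Fkbp5 had an r of 0.52 with ovary and uterus markers, 0.50 with brown and beige fat markers and 0.06 with skeletal muscle markers. With immediate early genes Fkbp5 had an r of 0.42 and a rho of 0.55 (adjusted p = 0.356 for rho). Tsc22d3 had an r of 0.55 and a rho of 0.73 with them (adjusted p = 0.134 for rho). The part of these measures in the levels of Fkbp5 and Tsc22d3 was not tested. The r of Fkbp5 with the array spread was -0.43 (adjusted p = 0.49). Without controls 631 and 658 it was -0.79 (permutation p = 0.00372), and that of Tsc22d3 was -0.73 (permutation p = 0.011). With the array spread as a covariate over all 13 daughters, 15 of the 29 induced genes had an unadjusted p under 0.05 and a positive slope with Fkbp5 (51.7%, against 4.03% of all genes). With Tsc22d3 it was 14 (48.3%, against 2.94%). The part of the array spread in these relations was not tested. Adrenal cortex markers, of which 10 of 12 were measured, averaged 7.28 to 7.42 over the daughters, with Cyp11b1 at 4.68 to 5.16, Cyp21a1 at 5.07 to 5.45, Hsd3b2 at 6.80 to 7.58, Star at 10.61 to 11.57 and Mc2r at 12.98 to 13.53. Detection above background was not assessed.

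The rest of the pathway was compared between the groups by lists, in which 0 genes passed over all genes and 5.42% of all genes had an unadjusted p under 0.05 in the higher direction and 2.54% in the lower. These were 786 higher and 369 lower genes, and 1177 and 242 after centring each array on its median. The adjusted p-values of the pathway genes and relatives given below were all 0.529 or above by limma. Of 9 measured genes of steroid metabolism, a list that includes the member Hsd11b1, 7 were higher on average in high-fat daughters and 2 were lower. Of the 7, Hsd11b1 among them, 2 had an unadjusted p under 0.05. The median difference was 0.09, against 0.03 over all genes, of which 58% had a higher mean. Over the brighter part of the array, 7253 genes, the median was also 0.09, with 641 higher and 20 lower at an unadjusted p under 0.05. Adipocyte markers had a higher mean for 10 of 11, with a median of 0.11, while T and NK cell markers were lower for 10 of 10, with a median of -0.17, and mesothelial markers for 6 of 6, with a median of -0.35. The part of these in the pathway lists was not tested. H6pd makes the NADPH that Hsd11b1 uses in the endoplasmic reticulum, and its means were 8.56 ± 0.14 (SD, n = 7) and 8.76 ± 0.12 (SD, n = 6), a difference of 0.20 ± 0.07 (SE). Por, the electron donor of microsomal cytochrome P450 enzymes, differed by 0.17 ± 0.06 (SE), and the steroid reductase relative Srd5a3 by 0.15 ± 0.10 (SE).

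Of 14 receptor chaperone genes 11 had a higher mean, with a median difference of 0.01 and none with an unadjusted p under 0.05. The co-chaperones Bag1, St13 and Ptges3 differed by 0.19 ± 0.09 (SE), 0.11 ± 0.07 (SE) and 0.10 ± 0.06 (SE), and the phosphatase Ppp5c, which binds the same receptor complexes, by 0.12 ± 0.08 (SE). With Fkbp5, a member of that list, 0 of the other 13 had a positive r and the median r was -0.45, against -0.04 over all genes. Of the 13, 2 had an unadjusted limma p under 0.05 with a negative slope, as had 6.41% of all genes. The part of the array spread in this was not tested. Of 11 receptor coregulators 10 had a higher mean, with a median of 0.09, and the Mediator subunit Med14 differed by 0.31 ± 0.11 (SE) and the coactivator Ncoa3 by 0.15 ± 0.07 (SE). Of the 29 induced genes 19 had a higher mean, with a median of 0.05, and 1 had an unadjusted p under 0.05. That gene was Pck1, at 12.74 ± 0.05 (SD, n = 7) and 12.92 ± 0.10 (SD, n = 6), a difference of 0.19 ± 0.05 (SE). Mt1 differed by -0.22 ± 0.13 (SE), the largest difference in the lower direction among the genes named from that list, and Angptl4 by 0.16 ± 0.09 (SE).

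Of 14 genes around the mineralocorticoid receptor and Sgk1, 11 had a higher mean, with a median of 0.08. Pdpk1, the kinase that activates Sgk1, differed by 0.14 ± 0.05 (SE), and Mapkap1, a subunit of the mTOR complex that phosphorylates Sgk1, by 0.15 ± 0.06 (SE). The sodium pump subunit Atp1b1 was the 1 gene of this list with an unadjusted p under 0.05 in the lower direction, at -0.33 ± 0.14 (SE). Among relatives of the members, the oestrogen receptor gene Esr1 differed by 0.27 ± 0.17 (SE), Tsc22d2 by 0.09 ± 0.07 (SE) and Sgk2 by 0.01 ± 0.05 (SE). Esr2, Tsc22d1 and Tsc22d4 differed by 0.00, 0.01 and 0.03, and another quantile normalization turned these to 0.08, -0.03 and -0.02. Pgr differed by -0.51 ± 0.50 (SE), and by 0.00 without control 658.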

How the data were processed

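Total RNA was extracted with Trizol and labelled as biotinylated cRNA for Affymetrix arrays, 1 per animal, per the labels' protocols. The deposited values are log2 levels of 29214 probes, from 3.24 to 14.54, made by the authors with RMA and Partek per the submitters' processing notes. The sources used here give neither versions nor the array's genome build, and background per probe was not assessed. RMA makes the distributions of the arrays alike, and any remaining difference in spread can shift dim genes one way and bright genes the other. Columns of other samples numbered 0.

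Probes were named from the platform annotation: 15310 have 1 symbol, 15279 of these matched RefSeq by Entrez ID, and the brightest probe per symbol left 14506 genes. The members and all gene lists were chosen with earlier results of these data known. Groups came from the sample titles.

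Groups were compared with limma 3.58.1 in R 4.3.3 (lmFit and eBayes, two-sided, adjusted p threshold 0.05 over all genes, no covariate). Pairs of members were compared by Pearson's r and Spearman's rho with 100000 permutations, or all arrangements in sets of 6 or 7, adjusted over 15 pairs, with scipy 1.17.1 and numpy 2.4.6 in Python 3.11.15. The limma fits with a member as the covariate over the other 14505 genes were added after seeing the data, as was the array spread as a measure.

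Named are the 6 members, the 3 genes nearest each by r, up to 4 genes per pathway list by smallest unadjusted p, all relatives of the members and Adipoq. Genes with locus-number symbols (LOC and RGD) were left out of the nearest genes. Other genes, such as Fmo2, the 13 induced genes that moved with Fkbp5, Rasd1, Nfkbia, Myh11 and the adrenal genes, were named after their values were seen. The array number limits the precision. Alternatives were renewed quantile normalization, centring, probe means, covariates (number range, muscle markers, array spread), each number range alone, leaving out the 4 muscle-rich arrays or each array, brighter genes, robust variance, array weights, an unmoderated model, all probes, rank correlation, group residuals and an adjusted p of 0.1. The fits were tested on simulated data.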

Additional observations from a re-analysis of the deposited data

Results flagged for a closer look

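A sample was set apart when its gap to the nearest other sample of its group, as a share of the range of the group, was above Dixon's 95% critical value, 0.568 for 7 samples and 0.625 for 6. Over 54 of the genes named, 108 groups were tested and 15 (13.9%) held such a sample. Chance flags about 1 in 20 independent groups. The genes tested include those nearest to the members, picked over the same arrays. The groups are therefore not independent, and the share cannot be set against chance. Control 658 was lowest for Nr3c1, at 10.37 against 10.76 to 10.90 (gap share 0.72), and for the 3 genes nearest to Nr3c1, Gpbp1l1 (0.71), Aqr (0.65) and Rnls (0.85). It was also lowest for Ptges3 (0.62), Ncor1 (0.80) and Mapkap1 (0.65), and highest for Pgr (0.88). Control 631 was lowest for Tsc22d3, at 8.58 against 9.36 to 9.50 (0.84), and for Foxo1 (0.61), Klf9 (0.64) and Fmo2 (0.60), which all moved with Fkbp5. Control 627 was lowest for Med14, at 7.31 against 7.70 to 7.91 (0.65). High-fat 629 was highest for Carm1, at 10.47 against 10.32 to 10.36 (0.74), and lowest for Adipoq, at 13.64 against 13.86 to 13.96 (0.71).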

How the results depend on the processing

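No member passed in the group comparison under any setting, the smallest adjusted p being 0.327 with array weights. Over all genes 0 passed in each setting by limma, with 369 lower and 786 higher at an unadjusted p under 0.05, and 242 and 1177 after centring, which moved the median of all genes from 0.03 to 0.05. Those counts were 59 and 76 in daughters 656 to 664 alone, 1111 and 879 in daughters 619 to 631 alone, and 1106 and 1402 without high-fat 660. Some differences changed sign. Another quantile normalization gave Tsc22d3 -0.04, Esr2 0.08, Tsc22d1 -0.03 and Tsc22d4 -0.02, and centring gave Fkbp5 0.02, Sgk1 0.02 and Esr2 0.02. The number range as a covariate gave Fkbp5 0.13. Array spread as a covariate gave Fkbp5 0.22, Pgr 0.21 and Tsc22d4 -0.07. Daughters 619 to 631 alone gave Tsc22d3 -0.02 and Adipoq -0.01. Daughters 656 to 664 alone gave Fkbp5 0.53, Sgk1 0.34, Bag1 -0.08, Ptges3 -0.03, Mt1 0.05, Sgk2 -0.02 and Tsc22d1 -0.04. Without the 4 muscle-rich arrays Fkbp5 was 0.11, and array weights gave Tsc22d3 -0.16, Sgk2 -0.01 and Tsc22d4 -0.01. The cause of these turns was not tested.

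Leaving out 1 daughter moved Fkbp5 from -0.14 (without control 631) to 0.14 (without high-fat 619), Tsc22d3 from -0.11 to 0.13 (same daughters), Sgk1 from -0.06 to 0.07, Esr2 from -0.03 to 0.02, Sgk2 from -0.02 to 0.04, Tsc22d1 from -0.02 to 0.05, Tsc22d4 from -0.01 to 0.09 and Pgr from -0.64 to 0.00. Hsd11b1 stayed at 0.09 to 0.16, Nr3c1 at 0.07 to 0.18 and Nr3c2 at 0.10 to 0.22. The count of 1 pair was 0 in daughters 619 to 631 alone, 0 in daughters 656 to 664 alone, where fewer animals were used, 2 by Spearman's rho, and 1 to 2 when leaving out each daughter, with 2 without control 631 or control 664. Fkbp5 and Tsc22d3 passed in the other settings. Nr3c2 was followed by 1260 genes with muscle markers as a covariate, by 1 without the 4 muscle-rich arrays and by 0 with all 13 arrays and no covariate, and Tsc22d3 by 1 gene with array spread as a covariate or without high-fat 624 and by 0 otherwise. No paired analysis, and none by father or litter, was possible because the labels give neither the father nor the litter of a daughter.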
